A study of Mus musculus with 4 samples.

Results

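The genes described here are 10 mouse genes that adipocytes express, a list given by name and drawn up with earlier results of these data known: *Adipoq*, *Plin1*, *Fabp4*, *Cidec*, *Retn*, *Cfd*, *Lpl*, *Lep*, *Car3* and *Pparg*. All 10 were found, by symbol, among the 17667 genes listed in at least 1 library, and were read as a measure of adipose RNA in dissected sympathetic ganglia (SG). RNA-seq was measured in T1–T4 SG, which send fibres to interscapular brown fat, of C57BL/6 mice aged 12 weeks after 1 day at 5 °C, with 1 library from TRKC+/- mice, 1 from AdNTF3-Tg mice and 2 from WT mice (WT_1 and WT_2). Each library was a pool of mice. All groups, the WT mice included, were kept in the cold. TRKC+/- mice carry 1 functional allele of the NT-3 receptor TRKC in all their cells. AdNTF3-Tg mice carry a transgene in which a fragment of the adiponectin (*Adipoq*) promoter drives neurotrophin NT-3, the product of *Ntf3*, in adipocytes. The labels do not say which WT library belongs to which mutant, so each mutant was set beside both.

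An adipocyte stores triglyceride in a droplet coated by proteins such as perilipin 1, takes up fatty acids released from lipoproteins by lipoprotein lipase, and secretes adiponectin, leptin and adipsin. The nuclear receptor PPARγ drives the program that makes these proteins. White and brown adipocytes share most of these genes, and brown adipocytes add the uncoupling protein UCP1, which turns the fuel into heat. SG lie beside fat, so that adipose RNA can enter a ganglion sample. Not every gene of the list is confined to adipocytes. *Fabp4* is also made by capillary endothelium, *Lpl* by muscle and macrophages, and *Car3* by slow skeletal muscle. In a bulk sample, fewer cells of a type and less RNA per cell cannot be told apart.

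Between 8665955 and 8894985 reads fell on genes in a library, and 3 reads, taken as the floor of detection, correspond to between 0.337 and 0.346 CPM (reads scaled to the library total). *Ntrk3*, the gene of TRKC, had 2.45 FPKM (reads scaled to gene length and to the library total) in WT_1, 2.52 in WT_2, 2.72 in the library labelled TRKC+/- and 2.32 in the AdNTF3-Tg library. It was therefore not lower in the library labelled TRKC+/-, and that library is named by its label throughout. *Ntf3* had 2 reads in the library labelled TRKC+/-, under the floor, and was not listed in the others, the AdNTF3-Tg library included. Markers of sympathetic neurons, among them *Th* and *Dbh*, summed to between 9245 and 9906 FPKM in the 4 libraries.

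The promoters of *Adipoq*, which drives the transgene, and of *Retn* and *Cfd*, whose levels followed the same order of libraries as *Adipoq* (given with the values of each gene), are shown as the 250 bases before the start of transcription, 5′ to 3′ on the strand of the gene, from RefSeq on GRCm38.p6. Capitals mark matches to CCAAT on either strand.
*Adipoq*, chr16:23146286-23146535 (+): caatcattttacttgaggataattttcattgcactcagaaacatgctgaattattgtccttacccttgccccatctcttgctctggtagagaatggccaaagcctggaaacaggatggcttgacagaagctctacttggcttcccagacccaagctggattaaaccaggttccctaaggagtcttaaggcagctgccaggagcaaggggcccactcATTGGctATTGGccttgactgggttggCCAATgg
*Retn*, chr8:3655520-3655769 (+): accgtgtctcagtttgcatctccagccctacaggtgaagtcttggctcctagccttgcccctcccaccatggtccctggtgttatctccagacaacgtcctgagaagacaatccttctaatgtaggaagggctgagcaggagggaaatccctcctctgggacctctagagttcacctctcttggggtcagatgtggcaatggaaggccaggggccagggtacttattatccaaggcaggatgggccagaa
*Cfd*, chr10:79890603-79890852 (+): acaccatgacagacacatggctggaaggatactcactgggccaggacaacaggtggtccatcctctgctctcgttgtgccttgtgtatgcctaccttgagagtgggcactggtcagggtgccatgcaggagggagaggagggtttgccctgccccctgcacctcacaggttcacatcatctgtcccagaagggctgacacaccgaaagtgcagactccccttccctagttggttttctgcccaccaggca

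The *Adipoq* promoter held 3 matches to CCAAT, which begin 34, 27 and 7 bases before the start. CCAAT was found in 33.8% of 32851 promoters of this length. A search on both strands for AGGTCA, which is in 14% of promoters, for TATAA, in 22.8%, and for TTGCGCAA, in 0.164%, matched none of these 3 windows. A direct repeat of AGGTCA spaced by 1 base, the form read by PPARγ with its partner RXR, was in 0.0335% of all promoters and in none of the 10 promoters that RefSeq gave for 7 of the adipocyte genes. *Lep* held TTGCGCAA, a palindrome of the kind bound by C/EBP factors, beginning 55 bases before its start. These matches describe letters in a window and are not binding sites.

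The 10 genes together held 4212 reads in WT_1, 3421 in WT_2, 3034 in the library labelled TRKC+/- and 2874 in the AdNTF3-Tg library. Scaled to library size, this was 486 CPM (exact Poisson counting interval 471 to 501) in WT_1, 387 (374 to 400) in WT_2, 341 (329 to 353) in the library labelled TRKC+/- and 326 (315 to 339) in AdNTF3-Tg. Reads of these 10 genes, not all of which are confined to adipocytes, were thus found in every library, at 0.0486% of the reads in WT_1 and 0.0326% in AdNTF3-Tg. The library labelled TRKC+/- and AdNTF3-Tg were both below both WT libraries, and the WT libraries stood further apart than WT_2 stood from either of them.

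**Figure D1:**
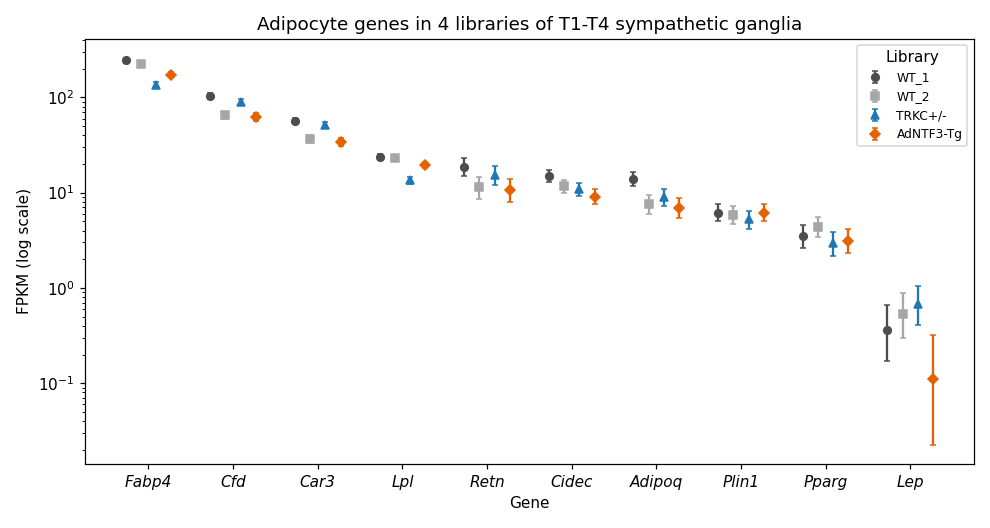
FPKM of the 10 adipocyte genes (log axis) in WT_1 (circles), WT_2 (squares), the library labelled TRKC+/- (triangles) and AdNTF3-Tg (diamonds), 1 library per point, with exact 95% Poisson counting intervals as bars. *Fabp4* and *Lpl* are lowest in the library labelled TRKC+/-, at 134 and 13.5 FPKM, whereas *Adipoq*, *Retn*, *Cfd* and *Car3* are highest in WT_1 and lowest in AdNTF3-Tg.

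The total joined genes of unlike behaviour. *Fabp4* and *Lpl* together had 241 CPM in WT_1, 223 in WT_2, 133 in the library labelled TRKC+/- and 177 in AdNTF3-Tg. The other 8 genes had 245 CPM in WT_1, 164 in WT_2, 208 in the library labelled TRKC+/- and 149 in AdNTF3-Tg. The library labelled TRKC+/- was the lowest of the 4 for the first sum and the second highest for the other. *Cfd* and *Car3*, with 695 and 680 reads in that library, carried most of the second sum, and *Plin1* and *Pparg* within it were lowest in that library.

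Among the lipid-handling genes, *Fabp4* (Entrez 11770, chromosome 3, 10204347 to 10208576 on NCBIM37, minus strand) encodes the fatty acid binding protein of adipocyte cytosol. It was the most abundant of the 10 and had 244 FPKM in WT_1 (1260 reads), 225 in WT_2 (1149 reads), 134 in the library labelled TRKC+/- (701 reads) and 173 in AdNTF3-Tg (879 reads). Both WT libraries were above AdNTF3-Tg, which was above the library labelled TRKC+/-. Apart from the WT pair, whose intervals overlapped, the counting intervals of neighbours in this order did not overlap. The log2 ratio of WT_1 to WT_2 was 0.12, with a counting interval of 0.05 to 0.28 that excludes 0. The log2 fold change against WT was -0.80 ± 0.11 (SE) in the library labelled TRKC+/- and -0.46 ± 0.10 (SE) in AdNTF3-Tg, with unadjusted edgeR p of 0.00079 and 0.0078. Neither passed the test after adjustment over 15288 genes (edgeR adjusted p = 0.999 and 0.816).

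*Lpl* (Entrez 16956, chromosome 8, 71404390 to 71431347, plus strand) encodes lipoprotein lipase, which releases fatty acids from circulating triglyceride. It had 23.8 FPKM in WT_1 (828 reads), 23.3 in WT_2 (821 reads), 13.5 in the library labelled TRKC+/- (480 reads) and 19.5 in AdNTF3-Tg (683 reads). The order was that of *Fabp4*, and the WT libraries differed by a log2 ratio of 0.03 (counting interval -0.10 to 0.18). The log2 fold change was -0.80 ± 0.10 (SE) in the library labelled TRKC+/- (edgeR adjusted p = 0.999, unadjusted p = 0.00055) and -0.27 ± 0.09 (SE) in AdNTF3-Tg (adjusted p = 0.816, unadjusted p = 0.035). By unadjusted p, *Lpl* and *Fabp4* ranked 3 and 4 of the 15288 genes in the library labelled TRKC+/-.

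The marker of brown adipocytes, *Ucp1*, followed the same order of genotypes. It had 47.3 FPKM in WT_1, 48.1 in WT_2, 7.80 in the library labelled TRKC+/- and 37.8 in AdNTF3-Tg. Its log2 fold change was -2.61 ± 0.13 (SE) in the library labelled TRKC+/-, where it ranked 1 and did not pass the threshold (edgeR adjusted p = 0.143). The 6 capillary endothelium markers summed to 37.7 FPKM in WT_1, 32.7 in WT_2, 37.4 in the library labelled TRKC+/- and 32.1 in AdNTF3-Tg. The 6 macrophage markers summed to 139, 114, 126 and 101 FPKM in the same libraries. The part of these cells in *Fabp4* and *Lpl* was not tested.

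*Plin1* (Entrez 103968, chromosome 7, 86866050 to 86877662, minus strand) encodes perilipin 1, which coats the lipid droplet and holds back lipolysis. Its level was 6.17 FPKM in WT_1 (98 reads), 5.86 in WT_2 (94 reads), 5.25 in the library labelled TRKC+/- (85 reads) and 6.18 in AdNTF3-Tg (100 reads). The 4 counting intervals overlapped, and the highest level was 1.18 times the lowest. The log2 fold changes were -0.20 ± 0.21 and 0.06 ± 0.21 (SE) in the library labelled TRKC+/- and in AdNTF3-Tg.

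*Cidec* (Entrez 14311, chromosome 6, 113374628 to 113385754, minus strand), which encodes a protein that joins droplets into larger ones, had 15.0 FPKM in WT_1 (215 reads), 11.6 in WT_2 (168 reads), 10.9 in the library labelled TRKC+/- (160 reads) and 9.10 in AdNTF3-Tg (131 reads). The library labelled TRKC+/- and AdNTF3-Tg were both below both WT libraries. Neighbours in this order had overlapping counting intervals, while WT_1 overlapped neither the library labelled TRKC+/- nor AdNTF3-Tg. Its log2 fold change was -0.28 ± 0.22 (SE) in the library labelled TRKC+/- and -0.55 ± 0.22 (SE) in AdNTF3-Tg. Beside WT_1 or WT_2 alone, the difference of normalized log2 CPM lay between -0.45 and -0.09 in the former and between -0.71 and -0.35 in the latter.

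Among the secreted products, *Adipoq* (Entrez 11450, chromosome 16, 23146609 to 23158101, plus strand), which encodes the insulin-sensitizing hormone adiponectin, had 14.0 FPKM in WT_1 (144 reads), 7.56 in WT_2 (78 reads), 9.0 in the library labelled TRKC+/- (94 reads) and 6.92 in AdNTF3-Tg (71 reads). WT_1 stood above the other libraries, whose counting intervals overlapped one another in neighbouring pairs. The log2 ratio of WT_1 to WT_2 was 0.88 (counting interval 0.51 to 1.33), larger than that of the library labelled TRKC+/- to either WT library (-0.63 and 0.25). The NT-3 sequence was placed at the start codon in an early exon of the adiponectin gene before the fragment with the promoter was taken for the transgene, and reads of any *Adipoq* exon sequence in that fragment cannot be told apart from those of the endogenous gene. *Adipoq* was lowest in the library of that line.

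*Cfd* (Entrez 11537, chromosome 10, 79353598 to 79355401, plus strand) encodes adipsin, complement factor D. It had 104 FPKM in WT_1 (787 reads), 64.8 in WT_2 (492 reads), 90.2 in the library labelled TRKC+/- (695 reads) and 62.0 in AdNTF3-Tg (468 reads). WT_1 and the library labelled TRKC+/- formed an upper pair and WT_2 and AdNTF3-Tg a lower one, with no overlap of counting intervals between the pairs. The log2 ratio of the library labelled TRKC+/- was -0.20 to WT_1 (counting interval -0.37 to -0.07) and 0.48 to WT_2 (0.32 to 0.66), so its direction depended on the WT library.

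*Retn* (Entrez 57264, chromosome 8, 3655770 to 3660110, plus strand), which encodes the hormone resistin, had 18.7 FPKM in WT_1 (91 reads), 11.4 in WT_2 (58 reads), 15.2 in the library labelled TRKC+/- (74 reads) and 10.6 in AdNTF3-Tg (53 reads). The order was that of *Cfd* and *Adipoq*, and neighbours in it overlapped in their counting intervals. The log2 ratio of WT_1 to WT_2 was 0.71 (counting interval 0.19 to 1.18).

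*Lep* (Entrez 16846, chromosome 6, 29010220 to 29023877, plus strand), which encodes the satiety hormone leptin made mainly by white adipocytes, was the least abundant of the 10. It had 0.36 FPKM in WT_1 (10 reads), 0.53 in WT_2 (15 reads), 0.67 in the library labelled TRKC+/- (19 reads) and 0.11 in AdNTF3-Tg (3 reads, at the floor). From highest to lowest, the order was the library labelled TRKC+/-, WT_2, WT_1 and AdNTF3-Tg, in which the counting intervals of neighbours overlapped and those of the first and last did not. Against the 3 reads of AdNTF3-Tg, the ratio of CPM was 0.295 of WT_1 and 0.201 of WT_2, with counting intervals of the log2 ratio of -4.26 to 0.20 and -4.75 to -0.49. *Lep* did not pass the test in AdNTF3-Tg (edgeR adjusted p = 0.816, unadjusted p = 0.039).

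*Car3* (Entrez 12350, chromosome 3, 14863538 to 14872351, plus strand) encodes carbonic anhydrase 3, a cytosolic enzyme abundant in adipocytes. It had 56.2 FPKM in WT_1 (725 reads), 36.7 in WT_2 (477 reads), 51.7 in the library labelled TRKC+/- (680 reads) and 33.9 in AdNTF3-Tg (439 reads). These values formed the same upper and lower pairs as those of *Cfd*. The log2 ratio of the library labelled TRKC+/- was -0.12 to WT_1 (counting interval -0.28 to 0.02) and 0.49 to WT_2 (0.33 to 0.68), just under the cutoff of 0.5 used for the counts.

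*Pparg* (Entrez 19016, chromosome 6, 115311239 to 115440419, plus strand), the regulator of the adipocyte program, had 3.48 FPKM in WT_1 (54 reads), 4.41 in WT_2 (69 reads), 2.93 in the library labelled TRKC+/- (46 reads) and 3.14 in AdNTF3-Tg (47 reads). The library labelled TRKC+/- and AdNTF3-Tg were both below both WT libraries, with overlapping counting intervals of the levels. The log2 ratio of the library labelled TRKC+/- to WT_2 was -0.57, with a counting interval of -1.16 to -0.03 that excludes 0. The log2 fold change was -0.44 ± 0.30 (SE) in the library labelled TRKC+/- and -0.39 ± 0.30 (SE) in AdNTF3-Tg. Beside WT_1 or WT_2 alone, the difference of normalized log2 CPM lay between -0.58 and -0.25 in the former and between -0.53 and -0.20 in the latter. None of the 10 genes shares exon sequence with another annotated gene.

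In the test across all genes, edgeR's quasi-likelihood test with Benjamini-Hochberg adjustment called 0 of the 10 adipocyte genes in the library labelled TRKC+/- (background 0% of 15288 genes) and 0 of 10 in AdNTF3-Tg (background 0%). At an unadjusted p under 0.05, 2 adipocyte genes, *Fabp4* and *Lpl*, were lower in the library labelled TRKC+/- (background of lower genes 1.08%), and 3, *Fabp4*, *Lpl* and *Lep*, were lower in AdNTF3-Tg (background 2.86%). DESeq2 also called none of the 10 in either comparison, and at an unadjusted p under 0.05 it gave the same 2 genes in the library labelled TRKC+/- but *Fabp4* alone in AdNTF3-Tg. Since each mutant has 1 library, this test takes the spread between the 2 WT pools as the spread of the mutants as well. Each line had its own WT controls, so the WT pools are controls of different lines rather than pools of a single cohort, and a difference between cohorts cannot be told apart from the spread between pools.

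The median log2 fold change of the 10 genes was -0.23 in the library labelled TRKC+/- (range -0.80 to 0.58, median of all genes -0.003) and -0.45 in AdNTF3-Tg (range -2.01 to 0.06, median of all genes -0.001). By FPKM, the median log2 ratio of the library labelled TRKC+/- was -0.27 to WT_1 and 0.08 to WT_2, so its direction turned with the WT library. That of AdNTF3-Tg was -0.72 to WT_1 and -0.19 to WT_2. In AdNTF3-Tg, 9 of the 10 genes lay below both WT libraries, all but *Plin1* (background 34.2%). In the library labelled TRKC+/-, 5 lay below both (*Plin1*, *Fabp4*, *Cidec*, *Lpl* and *Pparg*, background 30.9%) and *Lep* lay above both (background 32%). Both comparisons share the WT libraries.

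At the study's cutoff of an absolute log2 ratio of 0.5, the count depended on the WT library used. In AdNTF3-Tg, 6 of 10 genes were lower than in WT_1 (*Adipoq*, *Cidec*, *Retn*, *Cfd*, *Lep* and *Car3*, background 8.72%), whereas 1, *Lep*, was lower than in WT_2 (background 7.43%). In the library labelled TRKC+/-, *Adipoq*, *Fabp4* and *Lpl* were lower than in WT_1 (background 6.29%) and *Lep* was higher (background 4.79%), whereas *Fabp4*, *Lpl* and *Pparg* were lower than in WT_2 (background 6.18%). Between the WT libraries themselves 4 genes passed, with *Adipoq*, *Retn*, *Cfd* and *Car3* higher in WT_1 (background 8.05%). *Fabp4* and *Lpl* in the library labelled TRKC+/- were the genes below the cutoff against both WT libraries that had more reads than the floor. *Lep* in AdNTF3-Tg also passed against both, on 3 reads.

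**Figure D2:**
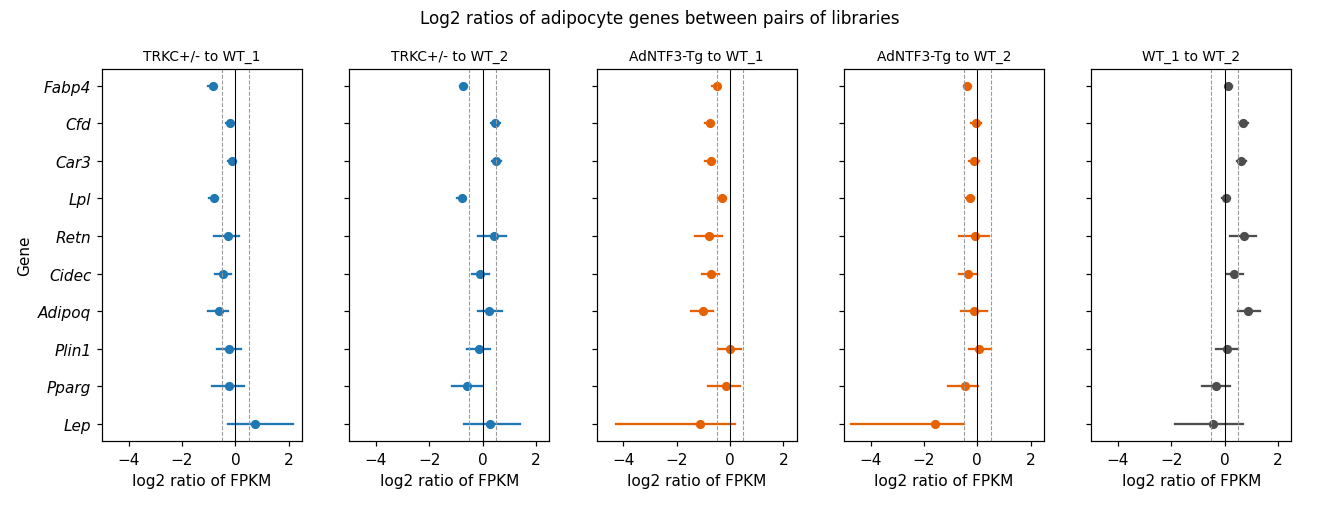
Log2 ratios of FPKM (points) of the 10 adipocyte genes for 5 pairs of libraries, with exact 95% counting intervals of the ratio of reads (bars) and dashed lines at 0.5 and -0.5. *Fabp4* and *Lpl* lie between -0.74 and -0.86 in the library labelled TRKC+/- against either WT library, while *Cfd*, *Car3*, *Retn* and *Adipoq* move with the choice of WT library and lie between 0.61 and 0.88 from WT_1 to WT_2.

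The order WT_1, the library labelled TRKC+/-, WT_2 and AdNTF3-Tg, from highest to lowest FPKM, was shared by *Adipoq*, *Retn*, *Cfd* and *Car3*, 4 of the 10 genes (background 5.5%). The summed markers of macrophages and of capillary endothelium, given with *Ucp1*, followed the whole of this order, and other lists followed part of it. Their single genes did not all follow it. Of the macrophage genes, *Adgre1*, *C1qa* and *C1qb* did, and *Csf1r*, *Cd68* and *Mrc1* did not. Of the endothelial genes, *Kdr* and *Cldn5* were highest in WT_2 and *Cdh5* and *Tie1* in the library labelled TRKC+/-. *Gpihbp1* was lowest in that library, and *Pecam1* was higher in AdNTF3-Tg than in WT_2. The 12 skeletal muscle markers summed to 102 FPKM in WT_1, 48.0 in the library labelled TRKC+/-, 35.9 in AdNTF3-Tg and 2.93 in WT_2, where *Myh1* and *Pvalb* were at 0. The 4 blood markers that were listed summed to 172 FPKM in WT_1, 146 in the library labelled TRKC+/-, 88.0 in AdNTF3-Tg and 65.2 in WT_2. The 7 markers of adipose stromal cells or fibroblasts summed to 257 FPKM in WT_1, 225 in the library labelled TRKC+/-, 212 in AdNTF3-Tg and 192 in WT_2. The 7 markers of satellite glia and Schwann cells summed to 1098 FPKM in WT_1, 1066 in the library labelled TRKC+/-, 1027 in AdNTF3-Tg and 934 in WT_2. In these 4 lists WT_1 was highest and the library labelled TRKC+/- second, as for *Adipoq*, *Retn*, *Cfd* and *Car3*, but WT_2 rather than AdNTF3-Tg was lowest. The part of any of these cell types in the adipocyte genes was not tested.

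The adipocyte genes were also set against *Adipoq* within each library. *Cfd* had 5.47 reads per *Adipoq* read in WT_1, 6.31 in WT_2, 7.39 in the library labelled TRKC+/- and 6.59 in AdNTF3-Tg. *Car3* had 5.03, 6.12, 7.23 and 6.18, and *Retn* 0.632, 0.744, 0.787 and 0.746, in the same libraries. The counting intervals of the 4 libraries overlapped for each of these genes. They are the genes that share the order of *Adipoq*, so that similar ratios restate that order. The intervals also overlapped for *Cidec*, which had 1.49 reads per *Adipoq* read in WT_1, 2.15 in WT_2, 1.70 in the library labelled TRKC+/- and 1.85 in AdNTF3-Tg, and for *Lep*, which had 0.0694, 0.192, 0.202 and 0.0423 on 3 to 19 reads. WT_1 was the lowest library for each of them except *Lep*. What sets these ratios was not tested.

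For *Plin1*, *Pparg*, *Fabp4*, *Lpl* and *Ucp1* the intervals did not all overlap. *Plin1* had 0.681 reads per *Adipoq* read in WT_1 (counting interval 0.521 to 0.886), 1.21 in WT_2, 0.904 in the library labelled TRKC+/- and 1.41 in AdNTF3-Tg (1.03 to 1.94). *Pparg* had 0.375 in WT_1 (0.269 to 0.516), 0.885 in WT_2 (0.630 to 1.24), 0.489 in the library labelled TRKC+/- and 0.662 in AdNTF3-Tg. For both genes WT_1 was again lowest, without overlap with AdNTF3-Tg for *Plin1* and with WT_2 for *Pparg*.

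*Fabp4* had 8.75 reads per *Adipoq* read in WT_1 (counting interval 7.36 to 10.5), 14.7 in WT_2 (11.7 to 18.8), 7.46 in the library labelled TRKC+/- (6.01 to 9.35) and 12.4 in AdNTF3-Tg (9.71 to 16.0). *Lpl* had 5.75, 10.5, 5.11 and 9.62 reads per *Adipoq* read in the same libraries. For both genes, WT_1 and the library labelled TRKC+/- overlapped at the low end, and WT_2 and AdNTF3-Tg overlapped at the high end. For *Fabp4* the intervals of WT_1 and AdNTF3-Tg also overlapped. *Ucp1* had 4.55 reads per *Adipoq* read in WT_1, 8.62 in WT_2, 1.17 in the library labelled TRKC+/- (0.880 to 1.56) and 7.39 in AdNTF3-Tg. For *Ucp1* the library labelled TRKC+/- therefore stood apart from all the others, which *Fabp4* and *Lpl* did not show on this scale.

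**Figure D3:**
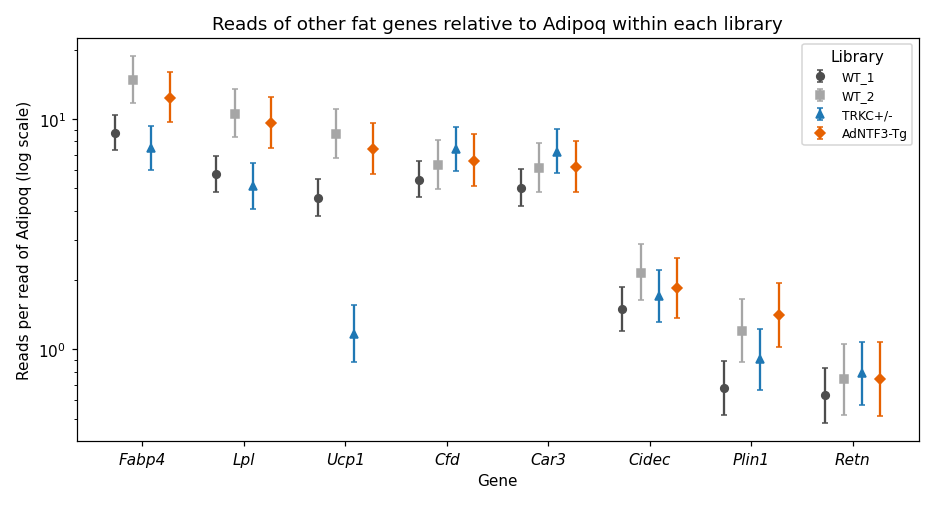
Reads of 7 adipocyte genes and of *Ucp1* per read of *Adipoq* in the same library (log axis), with exact 95% counting intervals, for WT_1, WT_2, the library labelled TRKC+/- and AdNTF3-Tg. The bars of the 4 libraries overlap for *Cfd*, *Car3*, *Retn* and *Cidec*, *Fabp4* and *Lpl* are lower in WT_1 and the library labelled TRKC+/- than in the other 2, and *Ucp1* falls to 1.17 in the library labelled TRKC+/-.

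Among other genes of adipocyte lipid handling, none was called by edgeR in either comparison. Of the 15 genes of lipid uptake and triglyceride synthesis, 5 had an unadjusted p under 0.05 in the library labelled TRKC+/-, each lower there (*Cd36*, *Fabp5*, *Acsl1*, *Gpd1* and *Pck1*), against 1.08% of all genes, and the median log2 fold change was -0.19. *Gpd1*, which makes the glycerol backbone of triglyceride, had 46.7 FPKM in WT_1, 42.9 in WT_2, 27.6 in the library labelled TRKC+/- and 38.5 in AdNTF3-Tg, the order of *Fabp4* and *Lpl*. *Pck1*, which feeds glycerol synthesis and is named here after its values were seen, had 7.04, 4.83, 1.76 and 4.27 FPKM in the same libraries. In AdNTF3-Tg, *Cd36*, *Fabp5* and *Aqp7* of this list were lower at an unadjusted p under 0.05, against 2.86% of all genes, and the median was -0.09.

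Of the 12 genes of the lipid droplet and lipolysis, 11 were tested, of which *Plin5* alone had an unadjusted p under 0.05 in the library labelled TRKC+/- (lower, background 1.08%) and none did in AdNTF3-Tg. The leading genes of that list by level were *Bscl2*, with 109 to 118 FPKM, *Plin2*, with 46.8 to 52.9 FPKM, and *Cidea*, with 43.0 to 54.3 FPKM. Of the 8 genes of fatty acid synthesis, *Me1* was higher in AdNTF3-Tg at an unadjusted p under 0.05 (1 of 8, background of higher genes 2.07%) and none differed so in the library labelled TRKC+/-. *Acly*, the enzyme that makes cytosolic acetyl-CoA, had 341 to 375 FPKM, *Scd2* 323 to 352 and *Scd1* 147 to 171. These genes of membrane lipid and triglyceride synthesis are also used by neurons and glia.

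Of 10 adipogenic transcription factors other than *Pparg*, none had an unadjusted p under 0.05. *Srebf1* had 34.5 to 39.2 FPKM, *Cebpd* 20.5 to 29.1 and *Cebpb* 11.9 to 16.6. Of 19 other adipocyte-enriched genes, *Slc2a4*, which encodes the insulin-responsive glucose transporter GLUT4, was lower in the library labelled TRKC+/- at an unadjusted p under 0.05 (background 1.08%), with 3.86 FPKM in WT_1, 3.24 in WT_2, 2.15 in the library labelled TRKC+/- and 2.55 in AdNTF3-Tg. The leading genes of that list, *Sncg* (1690 to 1944 FPKM), *Mest* (63.5 to 74.4 FPKM) and *Nnat* (60.6 to 73.0 FPKM), had no unadjusted p under 0.05, and *Sncg* is a neuronal gene as well.

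The ganglia also expressed receptors for adipocyte hormones. *Adipor1* had 59.3 to 62.6 FPKM and *Adipor2* 20.8 to 23.8 FPKM in the 4 libraries, with no unadjusted p under 0.05. *Lepr*, the leptin receptor, had 1.91 FPKM in both WT libraries, 1.74 in the library labelled TRKC+/- and 1.21 in AdNTF3-Tg (log2 fold change -0.63 ± 0.23 (SE), edgeR adjusted p = 0.816, unadjusted p = 0.044).

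Of 12 brown adipocyte genes, 6 had an unadjusted p under 0.05 in the library labelled TRKC+/-, all lower there (*Ucp1*, *Dio2*, *Elovl3*, *Cox8b*, *Cpt1b* and *Zic1*, the last at 1 read), against 1.08% of all genes, and the median log2 fold change was -1.03, against -0.23 for the 10 general adipocyte genes. In AdNTF3-Tg, *Ucp1* was lower at an unadjusted p under 0.05 (1 of 12, against 2.86% of all genes), and the median was -0.30 against -0.45. By FPKM, the median log2 ratio of the list was -1.15 to WT_1 and -0.67 to WT_2 in the library labelled TRKC+/-. The list was not uniform, and 10 of the 12 genes had a log2 fold change below 0 there. *Prdm16* and *Mpzl2* are named here after their values were seen. *Prdm16* had 2.45 FPKM in WT_1, 2.55 in WT_2, 2.58 in the library labelled TRKC+/- and 2.1 in AdNTF3-Tg. *Mpzl2* had 1.56, 0.82, 1.39 and 1.01 FPKM in the same libraries. *Cidea*, a droplet protein that brown adipocytes share with other cells, had 54.3 FPKM in WT_1, 46.1 in WT_2, 43.0 in the library labelled TRKC+/- and 45.3 in AdNTF3-Tg. *Cox7a1* had 16.9, 15.7, 10.8 and 12.3 FPKM in the same libraries.

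**Figure D4:**
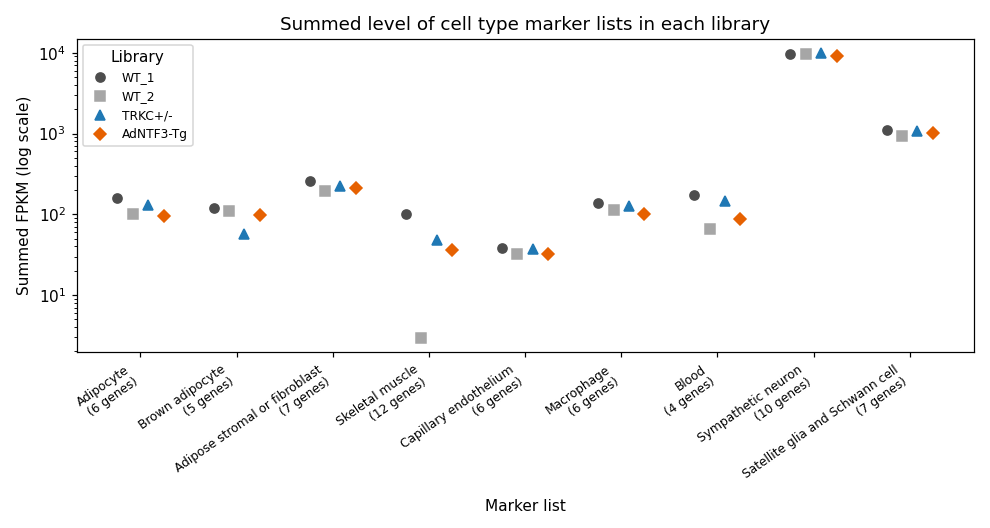
Summed FPKM of the listed genes of 9 cell type marker lists (log axis) in each of the 4 libraries. The 6 adipocyte markers sum to between 94.9 and 158 FPKM, the 10 sympathetic neuron markers to between 9245 and 9906 FPKM, and the 12 skeletal muscle markers vary most, from 2.93 FPKM in WT_2 to 102 FPKM in WT_1.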

How the data were processed

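RNA-seq of T1–T4 SG was measured in 4 libraries, grouped by genotype label. In the study's methods, poly(A) RNA was sequenced as single-end reads, filtered with SOAPnuke (v1.5.2) and mapped with HISAT2 (v2.0.4) to mm9. The submitters' processing notes name RSEM and mm10, so the build is uncertain. For each Entrez gene the authors deposited an expected count, not normalized, which RSEM divides between genes that share reads, and an FPKM value, scaled to gene length and library size. Whether counting used strand is not given in the sources used here. Genes not listed in a library were taken as 0 reads.

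Expected counts were rounded to whole numbers and tested with edgeR (4.0.16; glmQLFit, TMM, genes with at least 10 reads summed over the libraries, Benjamini-Hochberg threshold 0.05) over WT (2 libraries) and each mutant (1 library), which leaves 1 residual degree of freedom. P-values measure only the spread between the WT pools. The fit was tested on simulated data. FPKM ratios of library pairs are log2((FPKM + 0.1)/(FPKM + 0.1)), which understates the change of low genes, with a cutoff of 0.5, and have no test. Intervals of read ratios are exact Clopper-Pearson 95% intervals, those of single counts exact Poisson, and both cover counting error only, as does the floor of 3 reads. Alternatives were DESeq2 (1.42.0), its size factors in edgeR, no filter, other pseudocounts (1 and 0.01), TMM log2 CPM, a mean of at least 1 FPKM and a cutoff of 1. The members and gene lists were chosen with earlier results of these data known. Genes named are the 10, *Ntrk3*, *Ntf3*, *Ucp1*, list genes called, and otherwise the 3 most abundant of each list, and further genes, named where a count was 6 or fewer or with a marker sum, were chosen after their values were seen. Symbols (99.7% matched) are from RefSeq and positions from GENCODE vM1 on NCBIM37. Promoters of *Fabp4*, *Lpl* and *Car3* were not analysed here.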

Additional observations from a re-analysis of the deposited data

How the results depend on the processing

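No paired analysis was possible because the labels give replicate numbers to the WT libraries alone. Over all genes, edgeR called 0 in either comparison (269 and 755 at an unadjusted p under 0.05 in the library labelled TRKC+/- and in AdNTF3-Tg), edgeR with DESeq2 size factors called 1 (*Ucp1*) and DESeq2 called 2 (*Ucp1* and *Npcd*) in the library labelled TRKC+/-, and both called 0 in AdNTF3-Tg (DESeq2 had 21 and 63 at an unadjusted p under 0.05). No alternative called an adipocyte gene. At a cutoff of 1, no adipocyte gene passed in the library labelled TRKC+/- against WT_1 or WT_2 (0 and 0, from 4 and 3) or between the WT libraries (0, from 4), and 2 rather than 6 passed in AdNTF3-Tg against WT_1. For AdNTF3-Tg against WT_2 the count of 1 became 0 with a pseudocount of 1 or a mean of at least 1 FPKM, and 2 (*Lep* and *Pparg*) with TMM log2 CPM. Of the 380 other values recomputed, for named genes and library pairs, 375 were counted as kept. No fold change of a named gene under another test setting, and no pair ratio past the cutoff, changed direction. Values beside a single WT library were counted as kept within the SD of the WT pair. The same 2 WT libraries set that SD, so nearly every such value was kept whatever its sign. *Adipoq*, *Retn*, *Cfd* and *Car3* changed sign with the WT library in the library labelled TRKC+/-. Without 1 WT library no residual degree of freedom is left, so no test was run. The values beside a single WT library are differences of TMM log2 CPM (prior count 2), not edgeR fold changes. Set beside a single WT library, the log2 change of the library labelled TRKC+/- lay between -0.63 and 0.24 for *Adipoq*, -0.21 and 0.48 for *Cfd*, -0.32 and 0.32 for *Retn* and -0.12 and 0.49 for *Car3*, -0.45 and -0.09 for *Cidec* and -0.58 and -0.25 for *Pparg*, against -0.87 and -0.73 for *Fabp4* and -0.81 and -0.79 for *Lpl*. That of AdNTF3-Tg lay between -1.0 and -0.13 for *Adipoq*, -0.76 and -0.12 for *Retn*, -0.75 and -0.07 for *Cfd*, -0.73 and -0.12 for *Car3*, -0.71 and -0.35 for *Cidec*, -0.53 and -0.20 for *Pparg* and -1.76 and -1.27 for *Lep*. The edgeR fold change of *Lep* in AdNTF3-Tg, -2.01, lies outside its range here, which is on the other measure. The depth limits *Lep* most, at 3 to 19 reads.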

Other observations

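The transgene of AdNTF3-Tg mice uses the *Adipoq* promoter, and *Adipoq* was read 71 times in that library, while *Ntf3* was not listed there. A count of 0 allows up to 3 reads, or 0.341 CPM. By level, the 10 adipocyte genes ran from *Lep* at the 20.9 percentile of mean FPKM among the genes listed to *Fabp4* at the 97.8 percentile.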
